A study of Mus musculus with 6 samples.

Results

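The genes examined were those of the proteasome and of the cytosolic chaperonin CCT in mouse embryonic stem cells. They were all genes of the count table with a protein-coding symbol that starts with Psma to Psmg and a number, together with Tcp1, Cct2, Cct3, Cct4, Cct5, Cct6a, Cct7 and Cct8. This gave 58 genes of 55401, of which 50 carry proteasome names and 8 encode the chaperonin. Of the 58 genes, 6 lie on chromosome 14, 1 lies on chromosome 1 and 51 lie elsewhere. Psmc3ip fits the naming rule but encodes a protein of meiotic recombination and no proteasome subunit. Counts were compared between 3 libraries of unmodified V6.5 cells (WT) and 3 libraries of V6.5 cells that are Cdh1-/-, labelled Ecad_KO. Replicates in each genotype are called A, B and C. V6.5 is an embryonic stem cell line of hybrid origin, and Cdh1 encodes E-cadherin, the adhesion protein that joins neighbouring stem cells. How the knockout was made, whether it is 1 clone and whether the replicates came from separate cultures are not given in the sources used here. The p-values therefore measure the spread between these libraries, which may be technical.

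The 26S proteasome degrades proteins marked with ubiquitin. Its 20S core is a barrel of alpha rings, which gate the entrance, and beta rings, which hold the cutting sites. The 19S regulatory particle recognises ubiquitin, removes it, and unfolds the substrate with a ring of ATPases. CCT is a double ring of related subunits that folds actin, tubulin and other proteins. Stem cells are known for high activity of both machines, and subunits of a complex are needed in fixed ratios. RNA counts carry no measurement of protein or of assembled complex.

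Total counts per library lay between 18020719 and 23381942. Cdh1 itself was counted at 569, 571 and 537 CPM (counts scaled to a common library size) in WT A, B and C and at 168, 183 and 166 CPM in the knockout, a log2 fold change of -1.70 with a standard error (SE) of 0.08. All 8 markers of embryonic stem cells were present, with summed levels of 3446 to 3855 CPM in WT and 3707 to 4662 CPM in the knockout, and Klf4 among them was called higher. All 5 markers of primitive endoderm were called higher (summed 29.3 to 50.4 CPM in WT, 80.1 to 152 CPM in the knockout). The 8 fibroblast markers summed to 35.8 to 48.9 CPM in WT and 37.9 to 47.5 CPM in the knockout, with Pdgfra called higher and Col1a1 lower. Pdgfra is also 1 of the 5 primitive endoderm markers, and without it the other 7 fibroblast markers summed to 27.3 to 44.4 CPM in WT and 19.9 to 31.6 CPM in the knockout. Of 3 immune markers, 2 lay at or under the detection floor of 6 counts, and Ptprc had 0 counts. The part of these marker shifts in the results below was not tested. Chromosomes 14 and 1 differed as wholes between the genotypes. Over 622 tested genes of chromosome 14 the median log2 fold change was 0.53, a fold of 1.44. Over 1002 tested genes of chromosome 1 it was -0.33, a fold of 0.796.

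Counts sufficed to test 57 of the 58 genes, and 6 were called, meaning an adjusted p under 0.05 in edgeR's quasi-likelihood test. Among all 17325 tested genes 13.3% were called, 7.6% higher and 5.71% lower. The 5 tested genes of chromosome 14 were called higher, the gene of chromosome 1 was called lower, and none of the 51 genes elsewhere was called. At an unadjusted p under 0.05, edgeR gave 1 of these 51 higher, Psma3, and 2 lower, Psme3 and Psma8. DESeq2 and limma-voom called 0 of the 51. These directions follow the chromosomes: 49.8% of all tested chromosome 14 genes were called higher and 27.8% of chromosome 1 genes were called lower, while 10.8% of genes of the other chromosomes were called in either direction. In bulk samples, fewer cells of a type and less RNA per cell cannot be told apart.

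**Figure D1:**
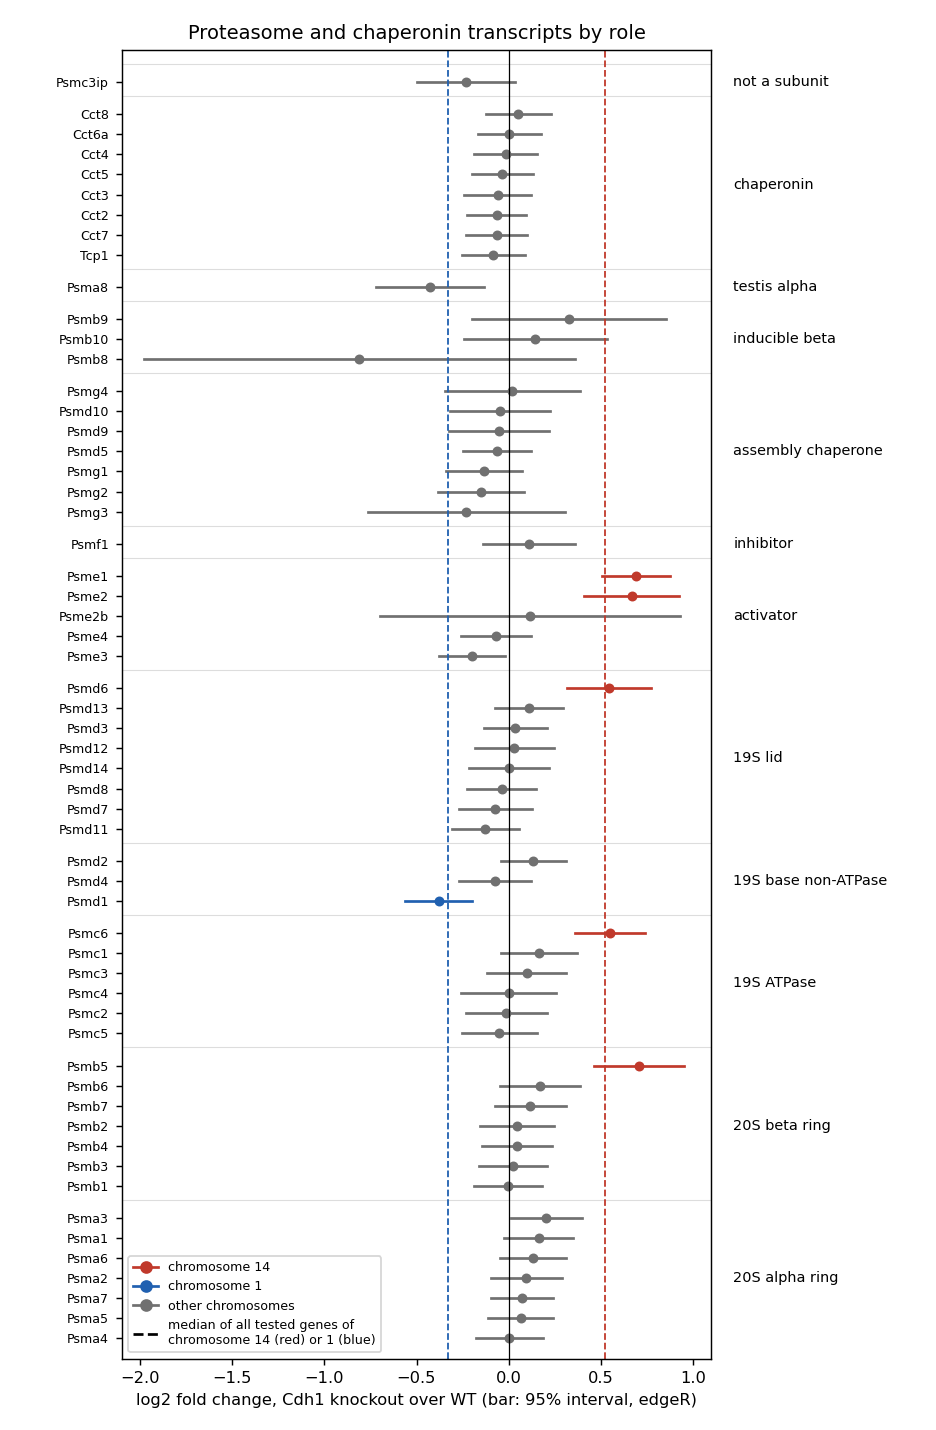
Log2 fold change of each tested gene, knockout over WT, with its 95% interval from edgeR, ordered by role; dashed lines mark the medians of all tested genes of chromosomes 14 and 1. The 5 genes of chromosome 14 lie to the right of every gene encoded elsewhere, and Psmd1 of chromosome 1 lies close to the blue line.

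The promoters of 5 of the 6 called genes, all but Psme2, are shown because the comparison turns on these genes. RefSeq (build GRCm38.p6) gave a promoter for 49 of the 58 genes. The bases printed lie just before the first exon base of the deposited annotation, 5′ to 3′ along the gene. Capitals mark the core of the antioxidant response element, TGACNNNGC on either strand, the kind of site that the proteasome regulator NRF1 and its relative NRF2 bind.
Psmd6 (chr14:14120985-14121195, minus strand): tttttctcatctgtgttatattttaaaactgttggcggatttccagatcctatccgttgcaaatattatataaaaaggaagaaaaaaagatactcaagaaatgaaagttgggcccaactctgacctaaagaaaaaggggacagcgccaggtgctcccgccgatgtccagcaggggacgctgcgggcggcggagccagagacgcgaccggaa
Psmc6 (chr14:45329574-45329787, plus strand): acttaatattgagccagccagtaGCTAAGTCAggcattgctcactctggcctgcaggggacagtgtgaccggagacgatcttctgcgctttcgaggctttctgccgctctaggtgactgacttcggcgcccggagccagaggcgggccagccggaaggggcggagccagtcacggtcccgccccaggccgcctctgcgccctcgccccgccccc
Psmb5 (chr14:54618023-54618245, minus strand): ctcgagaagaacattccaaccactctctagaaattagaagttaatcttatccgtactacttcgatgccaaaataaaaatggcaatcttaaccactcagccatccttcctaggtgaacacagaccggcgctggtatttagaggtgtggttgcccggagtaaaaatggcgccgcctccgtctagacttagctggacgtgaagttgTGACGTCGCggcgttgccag
Psme1 (chr14:55578244-55578359, plus strand): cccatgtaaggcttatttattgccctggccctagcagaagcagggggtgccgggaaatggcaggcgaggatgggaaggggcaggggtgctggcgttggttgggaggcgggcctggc
Psmd1 (chr1:86064369-86064618, plus strand): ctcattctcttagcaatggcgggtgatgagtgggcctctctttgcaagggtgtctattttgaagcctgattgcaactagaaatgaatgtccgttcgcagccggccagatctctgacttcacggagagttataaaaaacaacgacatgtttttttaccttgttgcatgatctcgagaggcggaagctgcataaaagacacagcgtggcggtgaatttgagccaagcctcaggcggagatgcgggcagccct

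In Psmb5 the match began 20 bases before the first exon. In Psmc6 it lay on the reverse strand and began 191 bases before the first exon. The windows of Psmd6, Psme1 and Psmd1 held no match to these letters. Over the 250 bases before each RefSeq start, 8 of 54 windows of the proteasome and chaperonin genes held the core (14.8%), against 3338 of 32851 windows of all genes (10.2%). The 8 windows belonged to Psmb5, Psmb6, Psmc6, Psmd12, Psmd9, Cct2, Cct6a and Tcp1, so both called and uncalled genes carried it. Psme2, which is not printed above, was among the genes with a RefSeq start and held no match. A match is a run of letters and was not measured as a bound site.

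The catalytic core was the first comparison. Psmb5 (ENSMUSG00000022193.7, GRCm38 chromosome 14, 54614119 to 54618022, minus strand) encodes beta 5, the subunit that cuts after hydrophobic residues and the main target of bortezomib. Its level was 78.1, 66.8 and 87.5 CPM in WT A, B and C and 109, 137 and 133 CPM in knockout A, B and C. Every knockout library lay above every WT library. Of the 622 tested chromosome 14 genes, 65.4% had groups that did not overlap, 384 higher and 23 lower. The log2 fold change was 0.71 (SE 0.11, adjusted p 0.000739). The microRNA gene Mir686 overlaps 12.1% of the exonic bases of Psmb5 on the same strand. The other 6 genes of the beta ring, on other chromosomes, had a median of 0.04, from Psmb1 at -0.00 to Psmb6 at 0.17, and none was called. Psmb6 and Psmb7 encode the other cutting subunits, and Psmb6 was at 177, 162 and 212 CPM in WT and 194, 214 and 212 CPM in the knockout, with overlapping groups.

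Relative to the geometric mean of its 6 ring partners, Psmb5 stood at 1.40, 1.66 and 1.62 times its WT mean in knockout A, B and C. The same ratio spanned 0.928 to 1.05 in WT. A subunit's share of its ring was also taken per length, from CPM per kilobase of exon (RPKM). Psmb5 held 9.95 ± 0.498% of the summed beta-ring level in WT and 14.5 ± 0.930% in the knockout (SD, n = 3 each). An even split over 7 subunits would be 14.3%, but the ring was uneven, with mean WT shares from 5.26% (Psmb1) to 26.6% (Psmb6). Shares of a ring sum to a fixed whole, so a higher share of 1 gene lowers those of its partners. In the knockout, the shares of 3 partners lay below and those of 3 overlapped their WT values.

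The alpha ring had no member on chromosomes 14 or 1, and none of its 7 genes was called. All 7 log2 fold changes lay above 0, with a median of 0.10, from Psma4 at 0.00 to Psma3 at 0.20. Of the 51 genes elsewhere, which include these 7, 26 lay above 0, as did 8479 of 17325 tested genes. Psma4 fell below 0 in some alternative fits, to -0.04 at the lowest. Psma3 was at 188, 204 and 215 CPM in WT and 212, 239 and 248 CPM in the knockout, groups that overlapped (adjusted p 0.161). Without knockout A its adjusted p was 0.0455 (edgeR) and its log2 fold change 0.27.

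In the 19S base, Psmc6 (ENSMUSG00000021832.8, chromosome 14, 45329788 to 45349705, plus strand) encodes 1 of the 6 ATPases that thread substrates into the core. Its level was 164, 192 and 189 CPM in WT and 280, 259 and 260 CPM in the knockout, without overlap. The log2 fold change was 0.55 (SE 0.09, adjusted p 0.000717). The 5 other ATPase genes ranged from Psmc5 at -0.05 to Psmc1 at 0.16, with 0 called. Psmc1 had 175, 164 and 188 CPM in WT and 172, 207 and 212 CPM in the knockout, so its groups overlapped. Psmc6 held 14.8 ± 1.62% of the summed ATPase level per length in WT and 19.9 ± 2.49% in the knockout. Relative to its partners it stood at 1.71, 1.29 and 1.33 times its WT mean in knockout A, B and C. Knockout A was set apart here from the other knockout libraries, and its partner levels differed too. The median of the 5 partners over the WT mean was -0.21, 0.17 and 0.09 (log2) in knockout A, B and C. In WT A, B and C the ratio was 0.920, 1.16 and 0.939, a wider spread than for Psmb5.

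Psmd1 (ENSMUSG00000026229.17, chromosome 1, 86064619 to 86139151, plus strand) encodes the base scaffold on which ubiquitin receptors dock, and it was the member that fell. It was counted at 327, 331 and 334 CPM in WT and at 231, 274 and 257 CPM in the knockout. The groups did not overlap, as for 49.8% of all tested chromosome 1 genes. The log2 fold change was -0.38 (SE 0.08, adjusted p 0.00763), a fold of 0.769. The paralogous scaffold gene Psmd2, on chromosome 16, stood at 376, 368 and 369 CPM in the WT libraries and 378, 440 and 404 CPM in the knockout, with a log2 fold change of 0.13, and the ubiquitin receptor gene Psmd4 had -0.07. Neither was called. Of the summed level of these 3 genes per length, Psmd1 held 32.7 ± 0.816% in WT and 26.5 ± 0.430% in the knockout. Psmd2 held 38.5 ± 1.20% in WT and 44.6 ± 0.268% in the knockout. Relative to the geometric mean of both partners, Psmd1 stood at 0.732, 0.756 and 0.766 times its WT mean in knockout A, B and C. In WT A, B and C the ratio was 0.991, 1.05 and 0.963. Of the exonic bases of Psmd1, 9.67% are shared with Gm21972 on the same strand, so some of its reads could belong to either gene.

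In the 19S lid, Psmd6 (ENSMUSG00000021737.4, chromosome 14, 14112174 to 14120984, minus strand) encodes a structural subunit of the lid, the part that removes ubiquitin through the enzyme encoded by Psmd14. Its level was 104, 98.6 and 117 CPM in WT and 132, 164 and 171 CPM in the knockout, without overlap. The log2 fold change was 0.55 (SE 0.11, adjusted p 0.00306). The 7 other lid genes ranged from Psmd11 at -0.13 to Psmd13 at 0.11, with 0 called. Psmd11, a lid subunit studied in pluripotent cells, was at 202, 199 and 229 CPM in WT and 188, 198 and 191 CPM in the knockout. Its groups did not overlap, but the difference missed the threshold (adjusted p 0.381, edgeR). Psmd6 held 11.9 ± 0.441% of the summed lid level per length in WT and 16.6 ± 1.03% in the knockout. Relative to its 7 partners it stood at 1.34, 1.51 and 1.56 times its WT mean in knockout A, B and C.

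**Figure D2:**
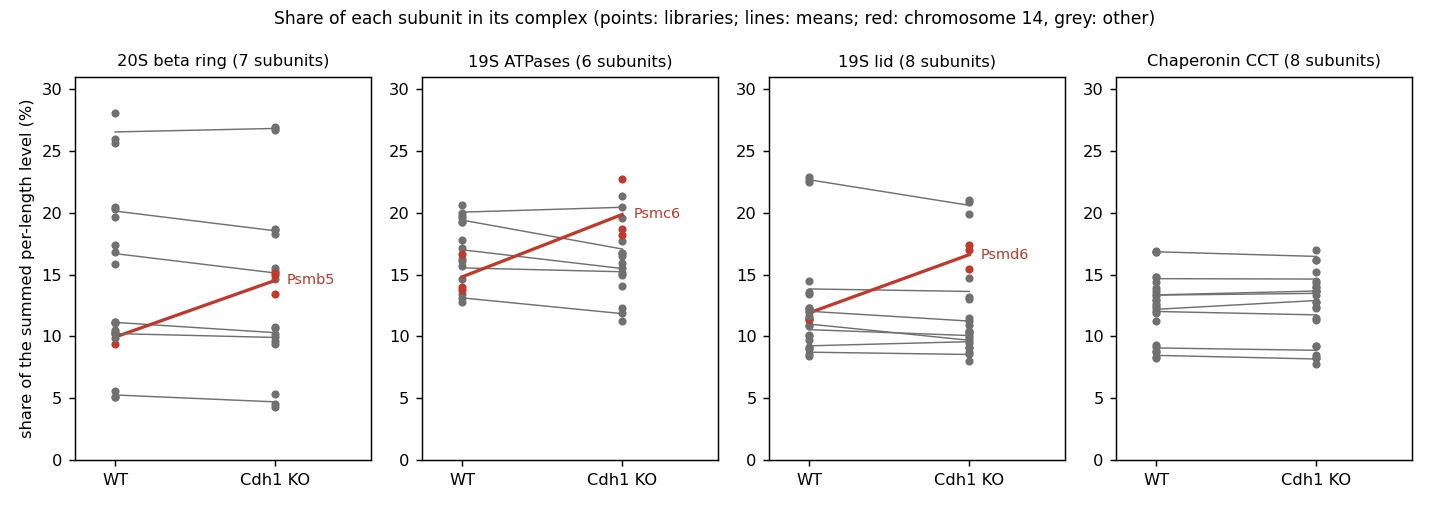
Share of each subunit in the summed per-length level of its complex (%), WT against knockout, with points for libraries and lines joining the means. Mean shares in WT and the knockout are 9.95% and 14.5% for Psmb5, 14.8% and 19.9% for Psmc6, and 11.9% and 16.6% for Psmd6, while all 8 chaperonin shares overlap between the genotypes.

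The activator PA28 offered a case in which both partners lie on chromosome 14. Psme1 and Psme2 encode its alpha and beta subunits, which cap the 20S core without ATP and are induced by interferon gamma. They lie 5.912 kb apart, Psme1 (ENSMUSG00000022216.17) at 55578360 to 55581528 on the plus strand and Psme2 (ENSMUSG00000079197.10) at 55587441 to 55591101 on the minus strand. Psme1 was at 53.1, 54.8 and 54.0 CPM in WT and 84.8, 89.4 and 86.7 CPM in the knockout. Psme2 was at 24.3, 22.2 and 20.7 CPM in WT and 31.9, 36.1 and 38.7 CPM in the knockout. Neither gene's groups overlapped.

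The log2 fold changes were 0.69 for Psme1 (SE 0.09, adjusted p 9.8e-05) and 0.67 for Psme2 (SE 0.12, adjusted p 0.00174). Between the pair, the balance did not move beyond the spread. Psme1 held 67.9 ± 1.97% of their summed per-length level in WT and 68.3 ± 1.85% in the knockout, and the groups overlapped. Psme2b, a copy of Psme2 on chromosome 11, averaged 1.52 CPM (WT) and 1.65 CPM (Cdh1-/-), at a log2 fold change of 0.12 (SE 0.38). Reads common to both copies are uncertain, because the authors' handling of such reads is not given in the sources used here. The genes of the other activators, Psme3 for PA28 gamma and Psme4 for PA200, lie on chromosome 11. Psme3 was at 180, 182 and 195 CPM in WT and 157, 172 and 157 CPM in the knockout, without overlap, but missed the threshold with a log2 fold change of -0.20 (adjusted p 0.140, edgeR). Psme4 had a log2 fold change of -0.07 and overlapping groups.

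**Figure D3:**
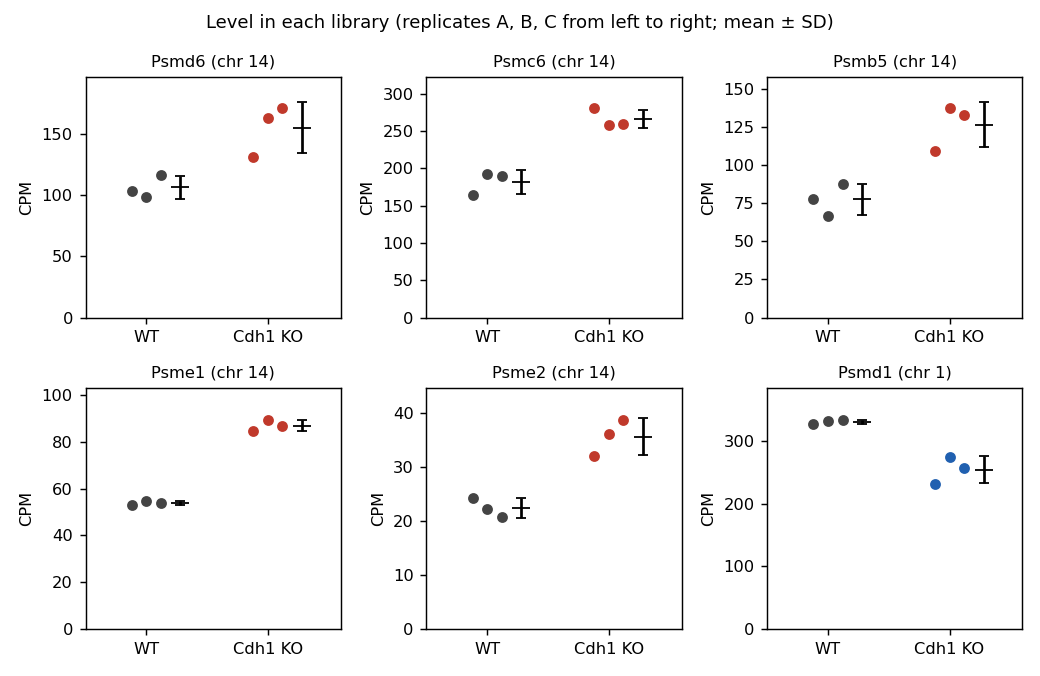
Level (CPM) of the 6 called genes in every library, with the mean ± SD of each genotype. In each panel the 3 knockout libraries lie entirely above the WT libraries (Psmd6, Psmc6, Psmb5, Psme1, Psme2) or entirely below them (Psmd1).

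As a group, the 5 tested genes of chromosome 14 had a median log2 fold change of 0.67, a fold of 1.59, and ranged from 0.55 to 0.71. Their medians over the WT mean were 0.51, 0.69 and 0.69 in knockout A, B and C on the log2 scale. The 95% interval of each of the 5 held the chromosome's median of 0.53. All 5 values lay above that median and below the chromosome's upper quartile of 0.75. Each of the 5 also lay above every one of the 51 genes elsewhere. When each library's medians of chromosomes 1 and 14 were removed before the fit, the log2 fold changes became 0.16 for Psmb5, 0.01 for Psmc6, 0.00 for Psmd6, 0.15 for Psme1, 0.13 for Psme2 and -0.07 for Psmd1. None of the 6 was then called (adjusted p 0.328 to 0.990, edgeR). Removing a chromosome's median takes away whatever its genes share, so this fit compares each gene with its chromosome and not with WT.

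The 51 genes on other chromosomes had a median of 0.00, with quartiles at -0.06 and 0.10 and extremes at Psmb8 (-0.81) and Psmb9 (0.33). The genes of those chromosomes as a whole also had a median of -0.00. Of the 51, 45 lay within 0.2 of 0. The 95% intervals of 48 lay below the chromosome 14 median, the exceptions being Psmb10, Psme2b and Psmb9, and 42 lay above the chromosome 1 median. No overlap between genotypes was seen for 9 of 51 (17.6%), 3 higher and 6 lower, against 28.1% of all tested genes of those chromosomes.

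**Figure D4:**
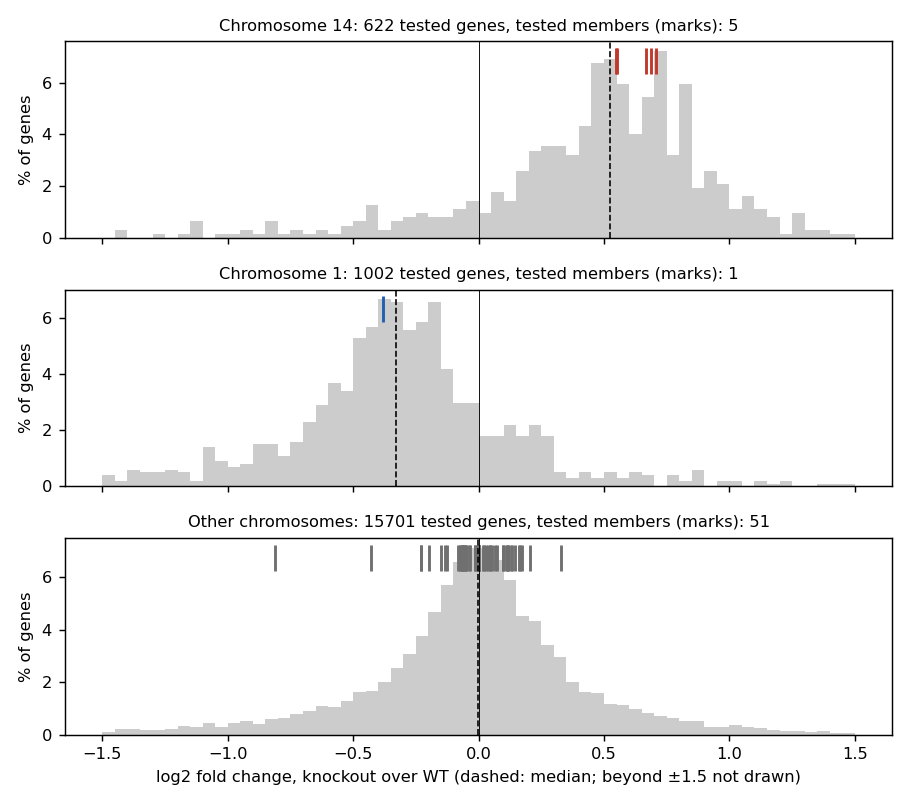
Distribution of log2 fold changes (percent of tested genes per bin) on chromosome 14, chromosome 1 and all other chromosomes, with marks for the proteasome and chaperonin genes and a dashed line at each median. The 5 marks of chromosome 14 lie at 0.55 to 0.71, all above that chromosome's median of 0.53. The mark of chromosome 1 lies at -0.38, below its median of -0.33. Of the 51 marks elsewhere, 45 lie within 0.2 of 0.

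The chaperonin had the highest levels. Per length, its 8 genes lay between 178 ± 8.65 RPKM (Tcp1) and 355 ± 9.06 RPKM (Cct2) in WT, against 33.1 RPKM (Psma2) to 128 RPKM (Psma7) for the alpha ring and 45.3 RPKM (Psmb1) to 230 RPKM (Psmb6) for the beta ring. No chaperonin gene lies on chromosome 14 or 1, and none of the 8 was called. Their log2 fold changes spanned only -0.08 (Tcp1) to 0.05 (Cct8), with SE of 0.07 to 0.08. Tcp1 was at 487, 536 and 505 CPM in WT and 489, 462 and 492 CPM in the knockout. Cct8 was at 592, 644 and 611 CPM in WT and 592, 681 and 640 CPM in the knockout. In both genes the groups overlapped. Of the exonic bases of Tcp1, 20.6% overlap genes on the opposite strand. The 95% intervals of the log2 fold change were -0.25 to 0.09 for Tcp1 and -0.12 to 0.23 for Cct8. All 8 shares of the summed chaperonin level overlapped between genotypes.

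Genes for assembly factors, which build the rings and leave the mature particle, were counted between 6.09 RPKM (Psmg3) and 52.5 RPKM (Psmg1) in WT, a range that overlaps that of the core subunits. Of 7, 0 were called and 6 had a log2 fold change below 0, from Psmg3 at -0.23 (SE 0.25) to Psmg4 at 0.02 (SE 0.17). Psmg4 turned to -0.02 under upper-quartile and library-total scaling and without knockout C or WT B. Without knockout B it was -0.09. Of the 51 genes elsewhere, which include these 7, 25 lay below 0, as did 8846 of 17325 tested genes. Psmg3 shares 26.8% of its exonic bases with Gm26938 on the same strand. Psmf1, which encodes the proteasome inhibitor PI31, had a log2 fold change of 0.11 and was not called.

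Subunits that replace the constitutive ones in particular tissues were near the low end. The immunoproteasome genes Psmb8, Psmb9 and Psmb10 stood at 0.433, 3.11 and 9.87 RPKM in WT, and the constitutive gene Psmb5, which Psmb8 replaces, at 86.1 RPKM. Psmb8 had at most 18 counts in a library and a log2 fold change of -0.81 with SE 0.55. Psmb9 shares 15.7% of its exonic bases with Tap1 on the opposite strand. Neither they nor Psmb10 (log2 fold change 0.15) were called. Psmb11, the thymus-specific beta subunit, lies 7.287 kb from Psmb5 on chromosome 14 (ENSMUSG00000072423.5, 54625310 to 54629556). It had 0 counts in every WT library and at most 4 in a knockout library, under the detection floor of 6 counts, and was not tested.

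Psma8, which encodes the alpha subunit of the spermatoproteasome, was at 20.6, 21.4 and 17.3 CPM in WT and 14.8, 15.5 and 13.8 CPM in the knockout. The groups did not overlap, and its log2 fold change of -0.43 (SE 0.14) was just outside the threshold (adjusted p 0.0543, edgeR). The adjusted p ranged from 0.0379 to 0.188 over the alternatives and was 0.0457 without WT C. Psmc3ip, the gene with a proteasome name and another function, was at 19.8, 23.0 and 21.8 CPM in WT and 18.3, 18.2 and 18.5 CPM in the knockout. Its groups did not overlap either, and it was not called, at -0.23 on the log2 scale (adjusted p 0.254, edgeR).

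The libraries of a genotype differed in a shared way in the regulatory particle. Over its 14 genes on other chromosomes, knockout A was the lowest of the knockout libraries in 14 of 14, against 37.2% of all tested genes. In WT, replicate C was the highest in 12 of 14, against 34.5% of all tested genes, and replicate B the lowest in 11 of 14, against 32.8%. Over all 51 genes elsewhere, knockout A was the lowest in 30 (58.8%). Among them WT C was the highest in 36 (70.6%) and WT B the lowest in 23 (45.1%). The 51 include these 14, so their counts do not show the order outside the regulatory particle. For the 8 chaperonin genes, knockout A was the lowest in 4, WT C the highest in 5 and WT B the lowest in 1. For the 7 alpha-ring genes, knockout A was the lowest in 3, WT C the highest in 5 and WT B the lowest in 0. Only the high WT C was seen in most genes of both sets. On the second principal component of all genes knockout A stood at 43.5, apart from knockout B at -11.7 and C at -25.8. The median over the WT mean was -0.21, 0.17 and 0.09 on the log2 scale for the 5 ATPase genes in knockout A, B and C. Genes of 1 complex measured in the same libraries are not independent of each other.

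**Figure D5:**
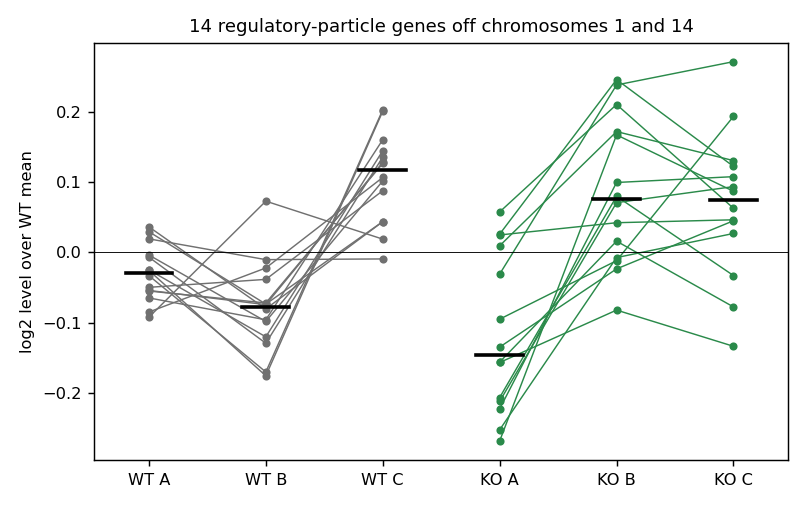
Level of 14 genes of the regulatory particle outside chromosomes 1 and 14 in each library, on the log2 scale over each gene's WT mean; every thin line is 1 gene and black bars are medians. Knockout A holds the lowest knockout value of all 14 genes, and WT C the highest WT value of 12.

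A list of 49 genes that work with these complexes was examined beside them, of which 48 were found and tested. It holds ubiquitin and proteasome cofactors, prefoldin and tubulin folding factors, and heat shock genes. Of the 48, 7 were called (14.6%, against 13.3% of all tested genes), 5 higher and 2 lower. The ubiquitin and proteasome cofactors gave 4 higher and 1 lower of 27, the folding factors 1 higher and 1 lower of 15, and the heat shock genes 0 of 6.

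Uba1, on chromosome X, encodes the main ubiquitin-activating enzyme. It was at 680, 698 and 757 CPM in WT and 1334, 1532 and 1524 CPM in the knockout, so the genotypes were widely separated. Its log2 fold change was 1.04 (SE 0.09, adjusted p 3.5e-06), and it stayed called in every alternative fit.

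Further called partners divided by chromosome in part. Ngly1, on chromosome 14, encodes the glycanase that NRF1 needs to become active, and its log2 fold change was 0.71 (SE 0.15, adjusted p 0.00609). Uchl5, a deubiquitinase gene of the regulatory particle on chromosome 1, stood at -0.44 (SE 0.11, adjusted p 0.0115). The prefoldin gene Pfdn2, also on chromosome 1, stood at -0.35 (SE 0.09, adjusted p 0.0138), and 30.8% of its exonic bases overlap Klhdc9 on the opposite strand. These 3 were not called once the medians of chromosomes 1 and 14 were removed. Of the 6 fits that left out a library, Uchl5 lost its call in 2 (without WT B or knockout C) and Pfdn2 in 3 (without WT A, WT C or knockout B). Ecpas, a proteasome adaptor gene on chromosome 4, rose by 0.36 on the log2 scale (adjusted p 0.0320), and Pfdn1, a prefoldin gene on chromosome 18, by 0.28 (adjusted p 0.0391). Ecpas lost its call in 4 of those 6 fits (without WT A, WT C, knockout B or knockout C) and Pfdn1 in all 6. On chromosome 14, Ngly1 was the only partner. On chromosome 1, 2 of 6 partners were called, both lower (33.3%), against 27.8% of all tested genes there called lower. All 6 partners there lay below 0, up to Hspd1 at -0.05, as did 826 of the 1002 tested genes of that chromosome. On chromosomes other than 14 and 1, 4 of 41 partners were called, 9.76% against 10.8% of all tested genes there.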

How the data were processed

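RNA of 6 libraries, 3 from each genotype, was sequenced with a directional kit, per the labels' protocols. The authors' deposited table gives unnormalised counts for each gene, with exon coordinates and lengths. The submitters' processing notes name cutadapt 2.10, STAR 2.7.5b, featureCounts 2.0.1 and build GRCm38. The strand setting, the treatment of read pairs and of reads that map to several places are not given in the sources used here. Groups and replicate letters were taken from the sample titles, and every count column matched 1 sample. Symbols came from GENCODE M21, which matched 55141 of 55401 identifiers. Cct6a is typed there as a processed transcript and is protein coding in RefSeq.

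Genes were filtered with filterByExpr (smallest count 10, smallest total 15), scaled by TMM and fitted with edgeR 4.0.16 in R 4.3.3 (glmQLFit, glmQLFTest) with genotype as the only term. Benjamini-Hochberg adjustment ran over 17325 tested genes, and a gene was called under 0.05. SE were derived from the F statistic, and intervals are at 95%. CPM use TMM-scaled library sizes, and RPKM divide them by the listed exon length. Ratios to partners divide a gene's CPM by the geometric mean of its partners on other chromosomes. They are given over the geometric mean of the WT ratios. Overlap between groups means that the ranges of 3 and 3 libraries meet. The fit was tested on simulated data.

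Among counts of 1 to 10, between 78.1% and 83.1% were even, as when both mates of a pair are counted. The floor was therefore 6 counts, or 3 read pairs, which is 0.257 to 0.333 CPM. It covers counting error only.

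The members, gene lists, chromosomes and tests were chosen with earlier results of these data known. The text names every member on chromosome 14 or 1, every called or untested member, the highest and lowest log2 fold change of each role, and called partners. A result for 1 called partner is not reported here. Further members named beside them (such as Psma7, Psmb10, Psmb7, Psmd14, Psmd4, Psme4, Psmg1 and Cct2) were chosen after their values were seen. Alternatives were RLE, upper-quartile and library-total scaling, other filters, DESeq2 1.42.0, limma-voom (limma 3.58.1), the replicate block, fits without 1 library, an adjusted p of 0.01, halved counts, and chromosome medians removed as offsets. Paaf1 of the partner list was not matched and was not analysed here.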

Additional observations from a re-analysis of the deposited data

How the results depend on the processing

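The same 6 proteasome genes were called in 16 of 17 alternative settings, and their directions held in all of them. With the medians of chromosomes 1 and 14 removed, 0 were called, the chromosome 14 median was 0.13, the chromosome 1 median -0.0662, and 4 pathway partners were called. By construction that setting takes out what the genes of a chromosome share. At an adjusted p under 0.01, 1242 genes in all and 3 partners were called. Fits without 1 library called 1374 to 2784 genes in all (the highest without knockout A), 6 to 7 members and 4 to 7 partners. Partner calls fell to 4 without WT A, knockout B or knockout C, and the cause was not tested. Psma8 was called under upper-quartile scaling, library totals, a smallest count of 50, the replicate block and without WT C, and Psma3 without knockout A. Deviations of libraries with the same letter correlated at 0.14 (A), -0.03 (B) and 0.23 (C). Those of different letters ran from -0.25 (WT C with knockout A) to 0.12 (WT B with knockout A). The letters were not treated as pairs in the main fit, and these values do not settle whether they are pairs. The replicate block called 7 members, 8 partners and 2686 genes in all, with medians of 0.67, -0.38 and -0.00 for members on chromosome 14, chromosome 1 and elsewhere. Over named genes and settings, 446 values kept their side of the threshold, 26 lost a call, 6 gained one and 0 reversed a call. Of the 446, 428 also kept their direction, and 18 uncalled values close to 0, of Psma4, Psmb1, Psmc5 and Psmg4, changed sign. Other scalings moved the median of all genes to no lower than -0.04. Low counts left SE of 0.25 for Psmb9, 0.38 for Psme2b and 0.55 for Psmb8, so moderate differences of these genes were not detectable at this depth.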
